A study of Bos taurus with 15 samples.

Results

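The antioxidant and glutathione genes are a set of 44 genes. Their products, perhaps except that of *SELP*, remove superoxide and peroxides, make or use glutathione, or regulate these reactions. The genes were found by their symbol in the deposited tables. There 43 of the 44 were present in all 6 comparisons and *GSTA1* was not found. The 43 genes stand among 13892 genes whose reads could be recovered for each library. RNA was sequenced from subcutaneous adipose tissue of the dewlap of primiparous Holstein cows, in 15 libraries that form 5 groups of 3. The groups are cows a month before calving and before the diets began (-4 weeks peripartum, wkpp), cows fed the low energy diet, in severe negative energy balance (SNEB), sampled 1 wkpp or 16 wkpp, and cows fed the high energy diet, in moderate negative energy balance (MNEB), sampled likewise. The cows of SNEB and MNEB were picked for their extreme energy balance in the first week, so these groups differ by selection as well as by diet. Libraries are named a, b and c in order of falling exonic size factor within a group and are not tied to a cow, so cows sampled at both times are treated as independent. The 3 libraries at -4 wkpp are compared with both NEB groups at 1 wkpp, and these comparisons therefore share them.

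Superoxide dismutases turn superoxide into hydrogen peroxide, which catalase, glutathione peroxidases and peroxiredoxins then remove. Glutathione peroxidases and glutathione transferases draw on glutathione, a tripeptide whose synthesis is limited by glutamate-cysteine ligase, while peroxiredoxins are recharged by thioredoxin. The transcription factor NRF2 (*NFE2L2*) switches on many of these genes and is held in the cytoplasm and marked for degradation by KEAP1. Adipocytes handle large fluxes of fatty acids, whose oxidation is a source of peroxides.

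The libraries differed in the number of reads on exons, and this difference followed the groups. Reads on exons numbered from 8.08 to 14.0 M (megareads) at -4 wkpp, from 11.0 to 14.8 M in SNEB and from 2.03 to 7.52 M in MNEB. Synthetic spike-in RNAs took between 1.28% and 9.10% of the exonic and spike-in reads at -4 wkpp and in SNEB, but between 17.2% and 62.7% in MNEB. Of the 6 lymphocyte markers, *CR2* alone had between 130.1 and 667 exonic reads divided by size factors in MNEB and between 2298 and 5379 in the other groups, while the other 5 summed to between 50.9 and 180.1 and between 47.7 and 164. Of the 8 skeletal muscle markers, *TNNT3* alone had between 1170.0 and 3941 in MNEB and between 54.1 and 338 in the others, while the other 7 summed to between 3.13 and 211 and between 2.45 and 56.0. The 9 adipocyte markers were detected in every group, with sums between 17134 and 94097 in MNEB and between 68398 and 125940 in the others. The 2 platelet markers found summed to between 357 and 1360.1 in MNEB and between 146 and 260.3 in the others. In bulk tissue, fewer cells of a type and less RNA per cell cannot be told apart.

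Levels are given below as exonic reads divided by a size factor (the median ratio of a library to the geometric mean of all 15), so that they compare libraries and not genes. A member was called when its adjusted p by limma was below 0.01 in the reads on exons and in the reads on the entire gene, introns included, with the same sign in both. A positive log2 fold change means a higher level in the group named first. Each test set 3 libraries against 3, and all 43 members passed the filter on low counts in every comparison. The lowest number of exonic reads behind a member in any library was 19, for *SOD3* in MNEB 1 wkpp.

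For 37 of the 43 members the estimate was higher before calving than in MNEB at 1 wkpp. Of the 43 members, 4 were called between -4 and 1 wkpp in MNEB, and all 4 were higher at -4 wkpp: *MGST1*, *MSRB1*, *GSTA4* and *CAT*. Over all genes tested 1.82% were called, 109 higher and 80 lower at -4 wkpp. This split was 121 higher and 199 lower when total reads replaced the size factors, and 385 and 697 with all 15 libraries in 1 fit. On exons alone 21 members passed, all higher at -4 wkpp, where 16.5% of all genes passed. The median log2 fold change was 1.00 for the members and 0.05 for all genes on exons. The groups did not overlap for 29 members that were higher and 1 that was lower at -4 wkpp, where 46.9% of all genes had no overlap. Leaving out any library at -4 wkpp or library b of MNEB 1 wkpp left 0 members called, and leaving out library c left 1 (*MGST1*), with 1 to 4 and 14 called over all genes. Without library a 4 were called, *MSRB1* not among them, and 229 of all genes. On exons alone the adjusted p of the 4 genes was at most 0.0024 whichever 1 library was left out. Library a of MNEB, with the fewest spike-in reads of its group, set alone against the 3 libraries at -4 wkpp gave log2 fold changes of 4.59 ± 0.32 for *MGST1*, 2.63 ± 0.32 for *MSRB1*, 2.48 ± 0.30 for *GSTA4* and 2.00 ± 0.24 for *CAT*. With 1 library in an arm, which is then taken to vary like the others, 0 members and 1 of all genes were called, and this loss says nothing of the spike-in reads. Spike-in reads took between 17.2% and 62.7% in MNEB 1 wkpp against 3.30% to 9.10% at -4 wkpp, and 4 of 9 adipocyte markers (*CIDEC*, *LEP*, *GPD1* and *LPL*) were called higher at -4 wkpp as well. *LIPE* and *PNPLA2* of the same list had log2 fold changes of -0.92 ± 0.26 and -0.51 ± 0.19 (adjusted p = 0.021 and 0.065 on exons, not called), with no overlap of the groups. The 7 blood endothelium markers summed to between 20571 and 25196 at -4 wkpp and between 31505 and 65250 in MNEB 1 wkpp, and none was called. The part of any of these in the members' change was not tested.

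In SNEB, no member was called between -4 and 1 wkpp by limma, and none without precision weights. On exons 15 members (34.9%) were below an unadjusted p of 0.05, against 14.5% of all genes, and on entire genes 13 (30.2%) against 10.6%. Of all genes 0.0378% were called. Without library b of SNEB 1 wkpp 2 members and 86 of all genes were called. On exons alone 3 members passed (*MGST1*, *GSTT1* and *MSRB1*), all higher at -4 wkpp, against 0.494% of all genes. The median log2 fold change was 0.28 for the members and -0.03 for all genes. The groups did not overlap for 14 members that were higher and 3 that were lower at -4 wkpp, against 19.8% of all genes. The spike-in shares of these groups overlapped. No adipocyte marker was called, but *GPD1*, *LPL* and *LEP* were 2.33 ± 0.22, 3.22 ± 0.62 and 1.39 ± 0.22 higher at -4 wkpp on the log2 scale and *FABP4* and *LIPE* had values of -1.13 ± 0.20 and -0.98 ± 0.20, each with no overlap (adjusted p = 0.0039, 0.041, 0.022, 0.031 and 0.056 on exons). The 7 blood endothelium markers summed to between 20571 and 25196 at -4 wkpp and between 31118 and 38496 in SNEB 1 wkpp. The 5 macrophage markers summed to between 4975 and 7104 and between 7585 and 11737. None of these was called. The part of any of these markers in the members' values was not tested.

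By limma, neither NEB group had a called member between 1 and 16 wkpp, and 0% of all genes were called in either, with or without precision weights. An unadjusted p below 0.05 on exons was found for 11 members (25.6%) in MNEB, against 1335 of all genes (13.5%), and for 3 members (6.98%) in SNEB, against 762 of all genes (7.17%). In MNEB 35 of the 43 log2 fold changes were negative, with a median of -0.40, so most estimates were higher at 16 than at 1 wkpp, and in SNEB 30 were negative with a median of -0.12. For all genes the medians were -0.01 in both. The libraries of 1 and 16 wkpp did not overlap for 9 members in MNEB (20.1% of all genes) and for 4 in SNEB (12.1% of all genes).

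Between SNEB and MNEB, limma called 1 member at 16 wkpp, *CAT*, and no member at 1 wkpp. Of all genes 3.71% were called at 16 wkpp and 0% at 1 wkpp. At 1 wkpp no member was called without precision weights, 21 members (48.8%) were below an unadjusted p of 0.05 on exons, against 32.3% of all genes, and 19 (44.2%) on entire genes, against 19.3%. Without library a of MNEB 1 wkpp 3 members and 449 of all genes were called there. The call of *CAT* at 16 wkpp was lost without any 1 of the 6 libraries, which left 34 to 111 of all genes called. Against library a of MNEB alone the log2 fold change of *CAT* was 1.43 ± 0.21, and 0 of all genes were called with 1 library in that arm. On exons alone *CAT* passed at 1 wkpp (1.54% of all genes) and *CAT*, *GPX8*, *GSTP1* and *SEPP1* at 16 wkpp (10.4% of all genes), each higher in SNEB. The median log2 fold change was 0.81 at 1 wkpp and 0.56 at 16 wkpp for the members, against 0.07 and 0.03 for all genes. The groups did not overlap for 21 members at 1 wkpp (39.7% of all genes) and for 17 at 16 wkpp (44.2% of all genes). These 2 comparisons share no library but may share cows, since the animals were biopsied at both weeks. In them 29 members were higher in SNEB at both weeks, 5 were lower at both and 9 changed sign. The same count over all genes was not made. Every MNEB library had more spike-in reads than any SNEB library, so the share of spike-in reads and the NEB group cannot be told apart here. At 16 wkpp the macrophage markers *CD163* and *CSF1R* were called higher in SNEB, of 5 such markers tested. The 5 summed to between 10451 and 13710 in SNEB and between 1970 and 2269 in MNEB at that week, and to between 7585 and 11737 and between 2010 and 6983 at 1 wkpp, where none was called. The 9 adipocyte markers summed to between 95903 and 125940 in SNEB and between 26529 and 94097 in MNEB at 1 wkpp. At 16 wkpp they summed to between 68398 and 75133 and between 17134 and 67450. None of them was called at either week. *CR2* was called higher and *TNNT3* lower in SNEB at 16 wkpp. The part of any of these markers in the members' difference was not tested.

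**Figure D1:**
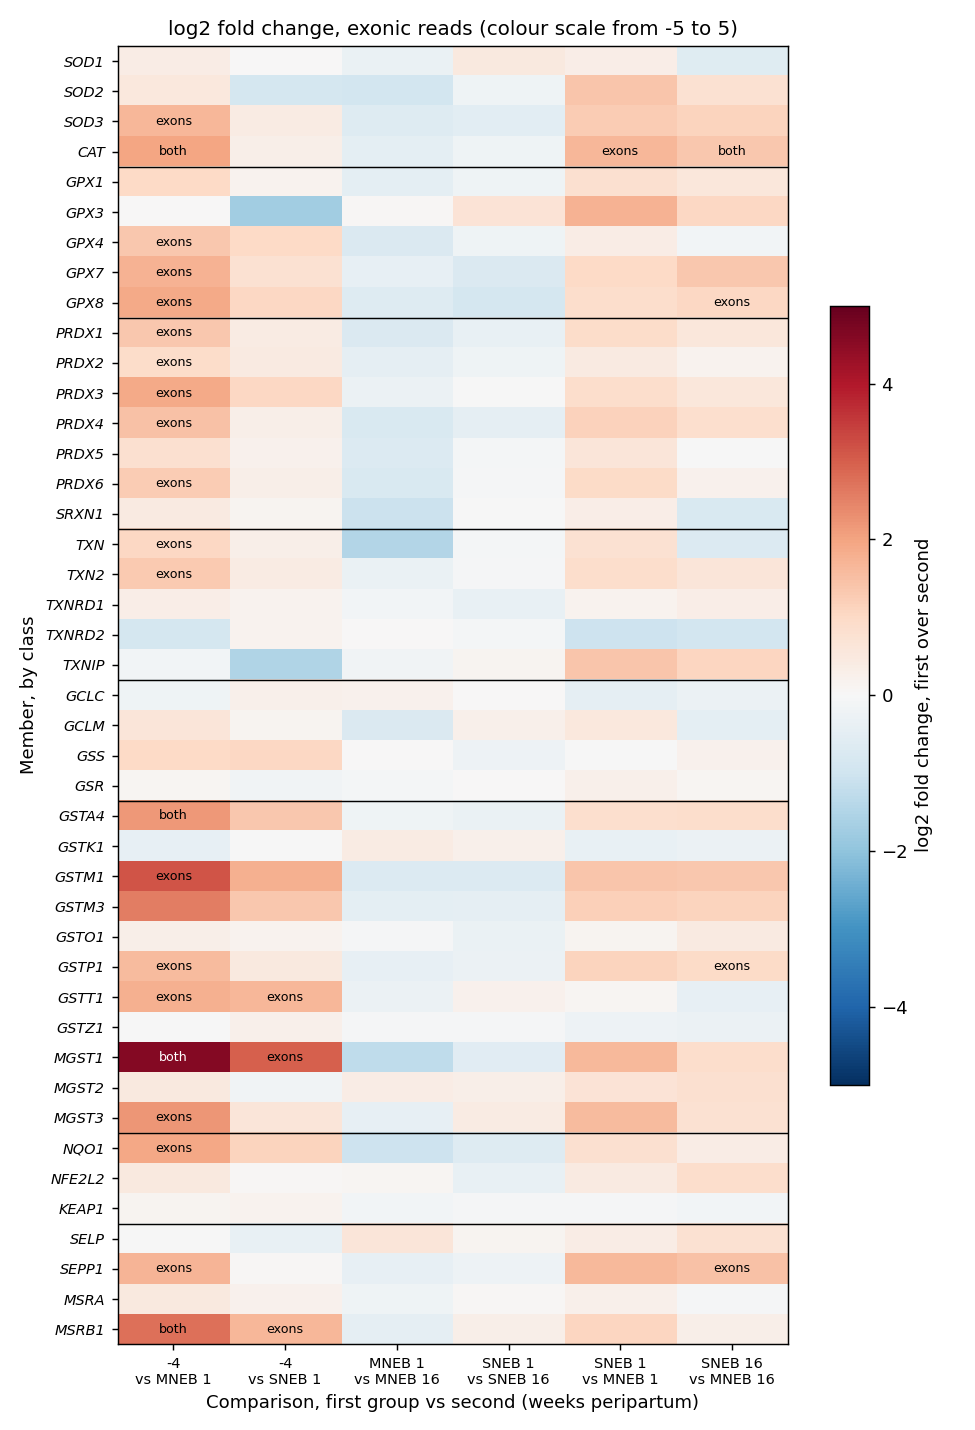
log2 fold change of exonic reads for the 43 members (rows, grouped by class with black lines) in the 6 comparisons (columns), from blue (lower in the first group) to red (higher). "both" marks a member called in both analyses and "exons" one past the threshold on exons alone; the first column, -4 wkpp against MNEB 1 wkpp, holds 21 of these marks and the MNEB and SNEB time columns from 1 to 16 wkpp hold none.

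Glutathione transferases couple glutathione to reactive compounds, and this class held the member with the largest change. *MGST1*, a microsomal transferase that also reduces lipid peroxides, had 7421, 5925 and 5256 normalized reads in the libraries at -4 wkpp and 248, 311 and 206 in those of MNEB at 1 wkpp. At 16 wkpp the MNEB libraries had 681, 586 and 555. The SNEB libraries had 671, 1283 and 517 at 1 wkpp and 934, 659.9 and 2179 at 16 wkpp. Every library at -4 wkpp was above every library after calving, and the 3 MNEB libraries at 1 wkpp were the lowest of all 15. For -4 wkpp over MNEB 1 wkpp its log2 fold change was 4.60 ± 0.25 (SE, adjusted p = 1.1e-05 on exons and 0.0035 on the entire gene), a level 24.3-fold higher at -4 wkpp. The call rests on 56 to 238 exonic reads per MNEB library. Against SNEB 1 wkpp it was 3.00 ± 0.33, past the threshold on exons (adjusted p = 0.0055) and not on the entire gene (adjusted p = 0.016). *MGST1* was the member with the largest change in both of these comparisons, which share the libraries at -4 wkpp.

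*GSTA4*, a transferase known for clearing 4-hydroxynonenal, an aldehyde formed when lipids are oxidized, had 1093, 1188 and 976 normalized reads at -4 wkpp. The MNEB libraries had 189.8, 295 and 305 at 1 wkpp and 349, 283 and 230.2 at 16 wkpp. In SNEB the values were 348, 783 and 287 at 1 wkpp and 335, 455 and 1012 at 16 wkpp. No MNEB library reached the level at -4 wkpp, whereas 1 SNEB library at 16 wkpp did. The log2 fold change of -4 wkpp over MNEB 1 wkpp was 2.16 ± 0.25 (adjusted p = 0.00035 on exons and 0.0060 on the entire gene). Between -4 wkpp and SNEB 1 wkpp it was 1.33 ± 0.33 (adjusted p = 0.096 on exons), and in SNEB a single library stood above the other two at each week.

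Of the 11 transferases found, 9 had positive and 2 negative log2 fold changes between -4 wkpp and MNEB 1 wkpp, with a median of 1.78 (0.05 over all genes), and 6 passed on exons (*GSTA4*, *GSTM1*, *GSTP1*, *GSTT1*, *MGST1* and *MGST3*), where 16.5% of all genes passed. *GSTM1* had 773, 741 and 720.2 normalized reads at -4 wkpp and 51.1, 105 and 221 in MNEB at 1 wkpp, a log2 fold change of 3.16 ± 0.39 that missed the call on the entire gene (adjusted p = 0.012). *GSTM3* had 558, 106 and 481 at -4 wkpp. *GSTM1* and *GSTM3* are close paralogs, and reads shared between such copies may be missing from their counts. *GSTK1* and *GSTZ1*, the mitochondrial and the maleylacetoacetate isomerase members, had log2 fold changes between -0.40 and 0.39 in all 6 comparisons.

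*CAT*, catalase, was the only member called in more than 1 comparison. It had 7070.4, 6151 and 6292 normalized reads at -4 wkpp. The MNEB libraries had 1584, 1656 and 1805 at 1 wkpp and 2201, 3257 and 1849.6 at 16 wkpp. Libraries of SNEB had 4724, 7141 and 4305 at 1 wkpp and 5728, 6509.9 and 5581 at 16 wkpp. All 6 MNEB libraries were below the other 9. Its log2 fold change was 1.97 ± 0.19 for -4 wkpp over MNEB 1 wkpp (adjusted p = 0.00015 on exons and 0.0066 on the entire gene) and 1.33 ± 0.25 for SNEB over MNEB at 16 wkpp (adjusted p = 0.0064 and 0.0098). At 1 wkpp SNEB exceeded MNEB by 1.67 ± 0.23, which passed on exons (adjusted p = 0.0081) and not on the entire gene (adjusted p = 0.050). For -4 wkpp over SNEB 1 wkpp the value was 0.31 ± 0.22, with a 95% interval from -0.19 to 0.80.

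No superoxide dismutase was called by limma in both analyses. *SOD3*, the extracellular form, had 331, 239 and 268 normalized reads at -4 wkpp and 119, 51.3 and 69.8 in MNEB at 1 wkpp (log2 fold change 1.67 ± 0.36, adjusted p = 0.0065 on exons and 0.057 on the entire gene). The SNEB libraries at 1 wkpp had 224, 187 and 210.3. *SOD2*, the mitochondrial form, had 1131, 744 and 1009.5 in SNEB at 1 wkpp against 464, 265 and 338 in MNEB (log2 fold change 1.40 ± 0.28, adjusted p = 0.015 on exons, not called). *SOD1*, the cytosolic form, had log2 fold changes between -0.62 and 0.49, and none was called.

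*MSRB1*, a selenoprotein that reduces oxidized methionine, had 1138, 1512 and 1204 normalized reads at -4 wkpp. MNEB libraries held 201, 170.2 and 202 at 1 wkpp and 340.3, 203 and 233 at 16 wkpp. SNEB libraries held 395, 517 and 326 at 1 wkpp and 344, 256 and 394 at 16 wkpp. As for *MGST1*, all libraries at -4 wkpp were above all libraries after calving. Its log2 fold change was 2.73 ± 0.24 against MNEB 1 wkpp (adjusted p = 0.00011 on exons and 0.0092 on the entire gene). Against SNEB 1 wkpp it was 1.65 ± 0.21, past the threshold on exons (adjusted p = 0.0083) and not on the entire gene (adjusted p = 0.060). *MSRA*, which reduces the other stereoisomer of oxidized methionine, had log2 fold changes between -0.23 and 0.48.

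**Figure D2:**
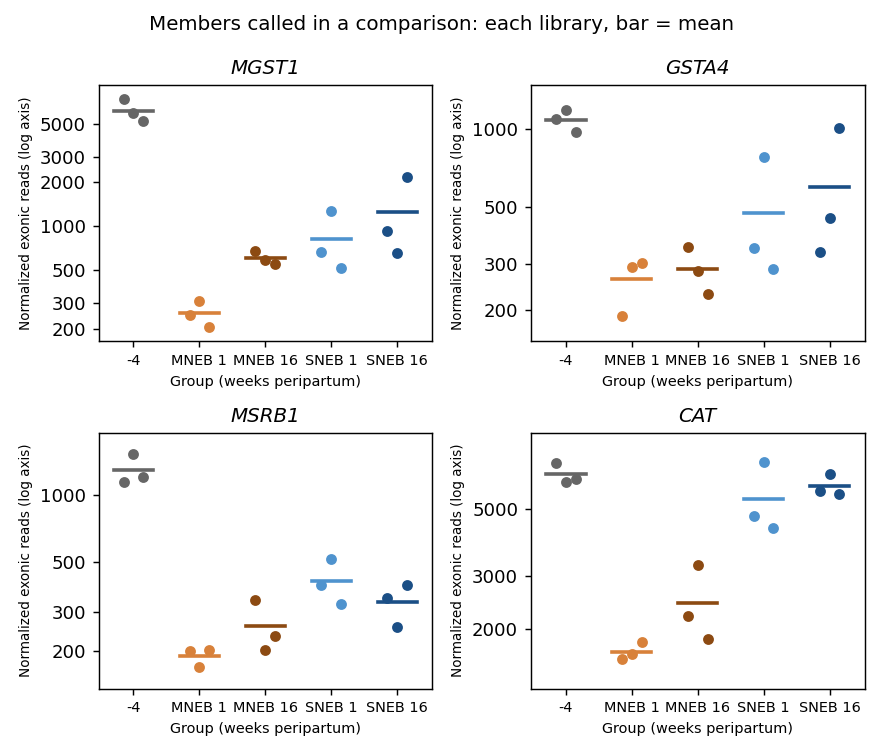
Normalized exonic reads (log axis) of the 4 members called in a comparison, by group. Each point is a library and each bar the mean of 3 libraries. *MGST1* and *MSRB1* are above all later libraries at -4 wkpp, and *CAT* is lower in the 6 MNEB libraries than in the other 9.

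Of the 5 glutathione peroxidases, 3 passed on exons between -4 wkpp and MNEB 1 wkpp, where 16.5% of all genes passed. These were *GPX4*, which reduces peroxides within membranes, and *GPX7* and *GPX8*, both found in the endoplasmic reticulum. *GPX1* and *GPX3* did not pass. *GPX8* had 613, 378 and 532 normalized reads at -4 wkpp. Libraries of MNEB had 87.6, 232 and 176 at 1 wkpp and 219, 211 and 219 at 16 wkpp. In SNEB there were 192, 298 and 248 at 1 wkpp and 405, 421 and 505 at 16 wkpp. The SNEB libraries at 16 wkpp were above all MNEB libraries and all SNEB libraries at 1 wkpp. For 1 over 16 wkpp in SNEB the log2 fold change was -0.89 ± 0.20 (lower at 1 wkpp), the largest in absolute size of any member in that comparison, with an adjusted p of 0.68 on exons. SNEB over MNEB at 16 wkpp gave 1.03 ± 0.18 (adjusted p = 0.0050 on exons and 0.048 on the entire gene).

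*GPX3*, the secreted plasma peroxidase, had 5894, 8120.2 and 4213 normalized reads at -4 wkpp. In MNEB the values were 6823, 5145 and 5852 at 1 wkpp and 2719.6, 10572 and 5644 at 16 wkpp. SNEB gave 31550.0, 12040.0 and 18943 at 1 wkpp and 18782, 18225 and 4945 at 16 wkpp. All SNEB libraries at 1 wkpp were above all others at -4 wkpp and in MNEB, while at 16 wkpp 1 SNEB library was within the MNEB range. The log2 fold change was 1.74 ± 0.33 for SNEB over MNEB at 1 wkpp, the largest of any member there (adjusted p = 0.012 on exons and 0.067 on the entire gene, not called). For -4 wkpp against SNEB 1 wkpp it was -1.73 ± 0.36 (adjusted p = 0.060 on exons). Against MNEB 1 wkpp it was 0.01 ± 0.27, with a 95% interval from -0.58 to 0.61.

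The 6 peroxiredoxins and sulfiredoxin (*SRXN1*), which restores over-oxidized peroxiredoxins, all had positive log2 fold changes between -4 wkpp and MNEB 1 wkpp. Of these 7 members 5 passed on exons, namely *PRDX1*, *PRDX2*, *PRDX3*, *PRDX4* and *PRDX6*, where 16.5% of all genes passed, and none on the entire gene. The largest was that of *PRDX3*, the mitochondrial peroxiredoxin, at 1.90 ± 0.26 (adjusted p = 0.00071 on exons and 0.013 on the entire gene). All 7 were also positive between -4 wkpp and SNEB 1 wkpp, at 0.12 to 1.04, and none passed. For 1 over 16 wkpp in MNEB all 7 were negative, at -1.06 to -0.30, and none passed.

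*TXN*, thioredoxin, had 495, 569 and 604 normalized reads at -4 wkpp. For MNEB they were 243, 305 and 287 at 1 wkpp and 849.8, 581 and 875 at 16 wkpp. For SNEB they were 396, 474 and 500.2 at 1 wkpp and 719.5, 382 and 387 at 16 wkpp. The MNEB libraries were the lowest of all 15 at 1 wkpp, and at 16 wkpp were above every library at 1 wkpp. The log2 fold change of 1 over 16 wkpp was -1.47 ± 0.24 in MNEB (adjusted p = 0.20 on exons and 0.22 on the entire gene), the largest of any member there, and -0.09 ± 0.26 in SNEB. The log2 fold change of 1 over 16 wkpp in SNEB minus that in MNEB was 1.43 ± 0.38 (adjusted p = 0.96 on exons and 0.53 on the entire gene). No member was called for this difference by limma (0% of all genes), with or without precision weights, and 4 members (9.3%) were below an unadjusted p of 0.05 on exons, against 4.92% of all genes.

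*TXNIP*, which binds and inhibits thioredoxin, had between 42241 and 51669 normalized reads in SNEB at 1 wkpp, between 14222 and 25908 in MNEB at 1 wkpp and between 14545 and 21151 at -4 wkpp. Its log2 fold change was -1.52 ± 0.21 between -4 wkpp and SNEB 1 wkpp (adjusted p = 0.011 on exons and 0.046 on the entire gene), and it was not called. *TXNRD2*, the mitochondrial thioredoxin reductase, was the member with the most negative values between SNEB and MNEB, at -1.03 ± 0.26 at 1 wkpp and -0.93 ± 0.20 at 16 wkpp (adjusted p = 0.028 and 0.011 on exons). Its libraries had 102, 119.8 and 114 normalized reads in SNEB and 189.8, 249 and 316 in MNEB at 1 wkpp, with no overlap. *TXNRD1*, the cytosolic reductase, had log2 fold changes between -0.35 and 0.35.

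*GCLC* and *GCLM*, the catalytic and modifier subunits of glutamate-cysteine ligase, *GSS*, glutathione synthetase, and *GSR*, which regenerates reduced glutathione, had no call and none passed on exons in any comparison. For *GSR* the log2 fold changes lay between -0.16 and 0.24. *GSS* was 1.00 ± 0.27 higher at -4 wkpp than in MNEB 1 wkpp (adjusted p = 0.019 on exons and 0.34 on the entire gene) and 1.03 ± 0.23 higher than in SNEB 1 wkpp (adjusted p = 0.071 and 0.28).

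*NFE2L2* had 1775, 1132 and 1497 normalized reads at -4 wkpp. MNEB gave 1112, 1084 and 930.0 at 1 wkpp and 1062, 869 and 986 at 16 wkpp. The reads in SNEB were 1307, 1665 and 1250.5 at 1 wkpp and 1337, 2111 and 1963 at 16 wkpp. Every SNEB library was above every MNEB library at both weeks. The log2 fold change of SNEB over MNEB was 0.44 ± 0.21 at 1 wkpp (adjusted p = 0.17 on exons) and 0.88 ± 0.20 at 16 wkpp (adjusted p = 0.015 on exons and 0.015 on the entire gene), neither called. For -4 wkpp over MNEB 1 wkpp it was 0.49 ± 0.22 on exons and 1.11 ± 0.37 on the entire gene (adjusted p = 0.13 and 0.11).

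*KEAP1* had 458, 609.5 and 529.6 normalized reads at -4 wkpp. In MNEB there were 570.4, 419 and 448 at 1 wkpp and 613, 476 and 471 at 16 wkpp. Values in SNEB were 492, 454 and 443 at 1 wkpp and 474, 441 and 506 at 16 wkpp. All 5 groups overlapped, and the log2 fold changes of the 6 comparisons lay between -0.15 and 0.19. *NQO1*, a quinone reductase and a classical NRF2 target, had a log2 fold change of 1.91 ± 0.31 between -4 wkpp and MNEB 1 wkpp (adjusted p = 0.0016 on exons and 0.032 on the entire gene).

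*SEPP1*, an earlier symbol of selenoprotein P, which carries selenium in plasma, had 6040.2, 4094 and 6479.8 normalized reads at -4 wkpp. Values in MNEB were 3094, 1213 and 1331 at 1 wkpp and 1693, 3254 and 1890.2 at 16 wkpp. In SNEB the reads were 4752, 4886 and 6201 at 1 wkpp and 4593, 6436 and 7600.4 at 16 wkpp. The 6 MNEB libraries were below the other 9, as for *CAT*. SNEB exceeded MNEB by 1.64 ± 0.36 at 1 wkpp (adjusted p = 0.019 on exons and 0.086 on the entire gene) and by 1.48 ± 0.30 at 16 wkpp (adjusted p = 0.0093 and 0.015), the largest value of any member at 16 wkpp. Against library a of MNEB alone these log2 fold changes were 0.75 ± 0.28 at 1 wkpp and 1.85 ± 0.29 at 16 wkpp. *SELP* is the symbol of P-selectin, an adhesion molecule of endothelium and platelets, and is also listed as an older symbol of selenoprotein P. Selenoprotein P has a row of its own here, *SEPP1*, but what the *SELP* row holds was not settled. *SELP* is counted among the members throughout. It had between 234 and 861 normalized reads and was not called.

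**Figure D3:**
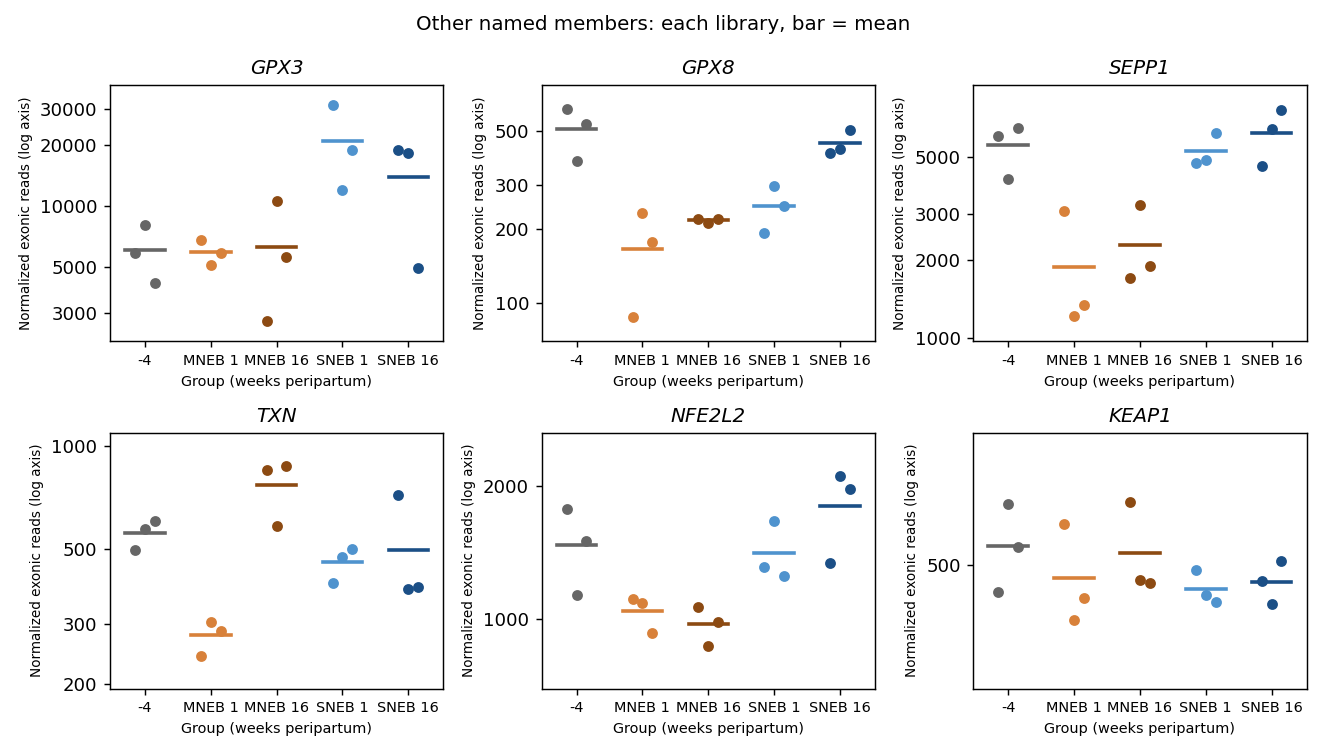
Normalized exonic reads (log axis) of 6 further members, by group. Each point is a library and each bar the mean of 3 libraries. *GPX3* is highest in SNEB at 1 wkpp, *TXN* is lowest in MNEB at 1 wkpp, *SEPP1* is lower in the 6 MNEB libraries than in the other 9, and *KEAP1* overlaps between all groups.

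**Figure D4:**
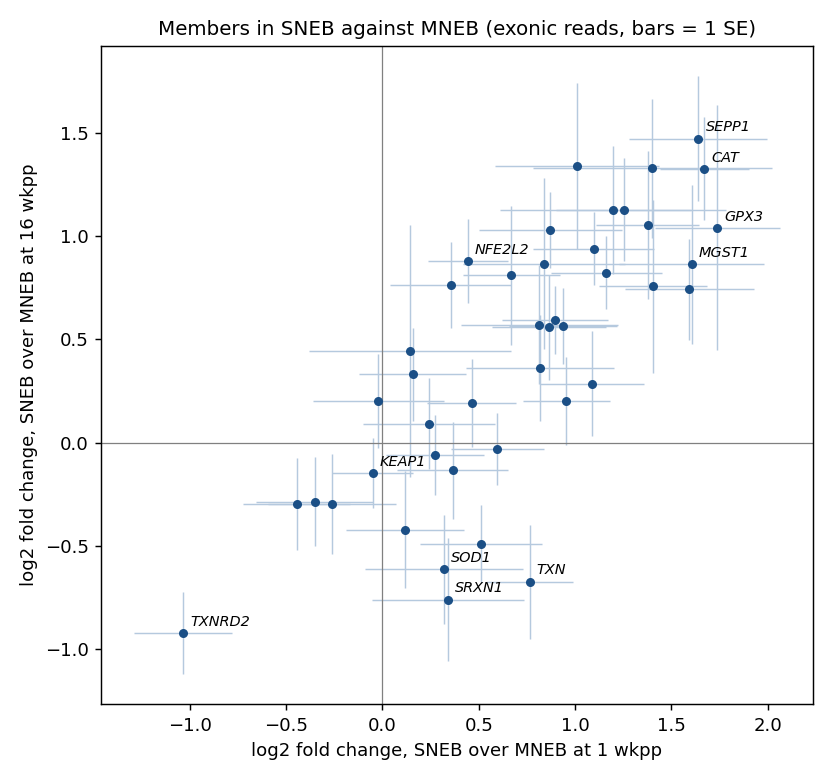
log2 fold change of SNEB over MNEB at 1 wkpp (horizontal) and at 16 wkpp (vertical) for the 43 members, on exonic reads. Each point is a member and its bars are 1 SE; 29 points lie above 0 on both axes, 5 below 0 on both, and 9 differ in sign, *TXN*, *SOD1* and *SRXN1* among them.

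Reads on exons and on the entire gene gave opposite signs for 5 to 8 members in each comparison of 2 groups. *GSR* was among them in 3 of the 6 comparisons and *MSRA* in 4. Between -4 wkpp and MNEB 1 wkpp the absolute log2 fold change was larger on exons for 33 of the 43 members, and the median standard error was 0.27 on exons and 0.31 on the entire gene.

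Of 89 other redox genes, 79 were in the tables. Between -4 wkpp and MNEB 1 wkpp 70 of them were tested in both analyses, and 1 was called, *OPLAH*, which recycles 5-oxoproline in glutathione breakdown (log2 fold change -1.77 ± 0.24, higher in MNEB), where 1.82% of all genes were called. At 16 wkpp *OPLAH* was again higher in MNEB (-2.01 ± 0.20), and *EPHX1*, an epoxide hydrolase, and *SELENBP1*, a selenium-binding protein, were higher in SNEB (1.70 ± 0.16 and 2.25 ± 0.39). These were the only 3 called of 69 tested, where 3.71% of all genes were called. The medians of the list on exons were 0.43 between -4 wkpp and MNEB 1 wkpp, and for SNEB over MNEB 0.58 (1 wkpp) and 0.37 (16 wkpp). None was called by limma in the other 4 comparisons of 2 groups or for the difference between the changes.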

How the data were processed

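The members and lists were chosen with earlier results of these data known. The authors trimmed reads with Cutadapt 1.3, aligned them with TopHat2 to bosTau8, counted them per gene with HTSeq and compared groups with DESeq2. For each of 6 comparisons they deposited a mean normalized count over 6 libraries, for exons and for entire genes, with their fold changes and p-values. The authors' fold changes and p-values were not used. The deposited means are other than counts of a library, so the reads of each library were recovered. For 14 of the 15 libraries on exons and 13 on entire genes, the value of 1 read was read off genes with reads in 1 library. For the others it was chosen among 15 trials on exons and 165 on entire genes. Then 15 whole numbers were solved from the 6 overlapping means by lattice reduction (sympy 1.14.0). Exonic reads were recovered for 13892 of 13896 genes, with a largest relative residual of 5.61e-15. Of 92 spike-ins, 86 were recovered in both analyses, and all their 1290 values were equal in both. Size factors computed from recovered reads were within 0.0406% of those in the tables on exons and 0.0758% on entire genes. The trial with the smallest such gap was the one kept, and the residual was bounded by the rule for counting a gene as recovered. Neither value is therefore a separate check of the recovery. A library is known by its group, not by its sample label, and is not tied to a cow, so p-values measure the spread between libraries.

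Tests used limma 3.58.1 in R 4.3.3 (voom weights, moderated test, Benjamini-Hochberg over all genes) on the 6 libraries of a comparison, with a mean normalized count of at least 10. The difference of changes used the 12 libraries at 1 and 16 wkpp. The scripts were tested on simulated data, with genes of low count added so that each library had some gene to itself. Named were members called in a comparison, the largest change of each comparison, and *NFE2L2* and *KEAP1*; others given with values were chosen after their values were seen. Per-library columns of other samples numbered 0. The annotation at hand is of another assembly (ARS-UCD2.0), so no coordinates are given.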

Additional observations from a re-analysis of the deposited data

How the results depend on the processing

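No paired analysis was possible because the recovered libraries carry no replicate number. Between -4 wkpp and MNEB 1 wkpp the 4 called members became 21 on exons alone, 11 at an adjusted p below 0.05, 13 with all 15 libraries in 1 fit and 0 without the MNEB libraries b and c, and the 189 of all genes became 1734, 1070, 1082 and 1. Total reads as scaling gave 320 of all genes, and no filter 68 of all genes and 3 members, without *MSRB1*. The median of all genes moved from 0.05 to -0.10 with total reads. More called genes were lower than higher at -4 wkpp with total reads (199 and 121), 15 libraries (697 and 385), the 0.05 threshold (617 and 453) and exons alone (964 and 770), where 80 were lower and 109 higher in the reported analysis. Between -4 wkpp and SNEB 1 wkpp members numbered 3 on exons, 2 at 0.05 and 2 with 15 libraries, and all genes 53, 67 and 23, with 9 by limma-trend and 0 with total reads. For SNEB and MNEB at 1 wkpp, exons gave 1 member and 161 genes, the 15 libraries 2 and 326, and the 0.05 threshold 75 genes. At 16 wkpp members numbered 4 on exons, 2 on entire genes, 6 at 0.05, 2 by limma-trend, 0 without a filter and 0 without the MNEB libraries b and c, and all genes 1068, 417, 1344, 461, 268 and 0 under the same settings, against 377.

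Leaving out 1 library gave 0 to 4 members and 1 to 229 genes for -4 wkpp and MNEB 1 wkpp, 0 to 2 and 0 to 86 for -4 wkpp and SNEB 1 wkpp, 0 to 3 and 0 to 449 for SNEB and MNEB at 1 wkpp, and 0 to 0 and 34 to 111 at 16 wkpp. The cause of these changes was not tested. The log2 fold changes of the 4 members stayed between 4.46 and 4.72 (*MGST1*), 2.60 and 2.82 (*MSRB1*), 1.89 and 2.27 (*GSTA4*) and 1.90 and 2.01 (*CAT*), and that of *CAT* at 16 wkpp between 1.12 and 1.57. In the comparisons where a member was called, its log2 fold change did not change sign under these settings. Leaving out b and c, the MNEB libraries with the highest shares of spike-in reads, was chosen after seeing the data. It leaves 1 MNEB library in an arm, and could not be fitted for MNEB at 1 and 16 wkpp.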

Other observations

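*SOD1* had 463 normalized exonic reads in library c of -4 wkpp and 432 in library c of SNEB 1 wkpp, and between 135 and 296 in the other 13 libraries. These 2 libraries also had the lowest shares of exonic reads among reads on entire genes, 40.5% and 40.6%, where the others had between 45.7% and 60.1%. They had 9.10% and 8.49% of spike-in reads, the highest shares outside MNEB. The letters follow the exonic size factor and carry no other meaning.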
